A study of Mus musculus with 2 samples.

Results

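The enzymes that supply nucleotides, with the serine and folate pathways that feed them, were examined in mouse macrophages grown from bone marrow. The set was a list of 39 genes matched by gene symbol, covering deoxynucleotide supply, purine and pyrimidine synthesis, salvage, serine synthesis and folate one-carbon metabolism. Of these, 37 were among the 19505 genes measured, and Pfas, a purine synthesis enzyme, and Impdh2, the second IMP dehydrogenase, had no value here. RNA was read on whole-transcript GeneChip arrays, with 1 array for each of 2 genotypes. The first group carried the genotype LysM (+);MC4RTB/TB, called LysM(+) below, and the second the genotype MC4RTB/TB, called TB/TB. Both groups were homozygous for the TB allele of the melanocortin 4 receptor gene and differed by label in LysM alone. As background, Mc4r TB alleles are null alleles in which an inserted stop cassette can be cut out by Cre recombinase, and LysM (Lyz2) Cre acts in macrophages, monocytes and neutrophils, but the labels explain neither name. Marrow cells of both groups were grown in 10% fetal bovine serum with M-CSF at 25 ng/mL, given on days 0 and 3, and were used from day 5. The labels give no age, sex, strain background or number of mice for either culture.

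Values are log2 expression values, and each difference is LysM(+) minus TB/TB. With 1 array per group no difference has a replicate check and no test was run, so a pair of values describes 2 arrays, not 2 genotypes, and the precision is limited by that number. A gene was called higher or lower when it differed by at least 1.5-fold and the mean of its 2 values reached 6.12, the median over named probe sets, called the floor. The 23 background control probe sets lay between 3.09 and 6.81. Fold changes assume that the values are on a log2 scale, and the values reach 19.5, which is high for the method used, so a fold depends on that reading while a direction does not. Mc4r, at 4.45 in LysM(+) and 4.57 in TB/TB, lay under the floor on both arrays and gives no check of the genotype labels. The cell type label was checked on 11 measured macrophage markers, which had values between 12.4 and 18.9 in LysM(+) and between 12.8 and 19.0 in TB/TB, with 0 of 11 called in either direction. Lyz2 of that list had 18.86 and 19.04.

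DNA synthesis needs the deoxynucleotides dATP, dGTP, dCTP and dTTP. Ribonucleotide reductase makes deoxynucleotides from ribonucleotides, and dTTP is then made through thymidylate. Purine rings and the methyl group of thymidylate take carbon from folate, and serine is the main donor of that carbon. A differentiated macrophage that does not divide keeps its deoxynucleotide pools small, and the dNTP-degrading enzyme SAMHD1 is known for acting in such cells, whereas M-CSF drives macrophage precursors to divide.

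The stretches before the start sites of Rrm2, Rrm1, Tyms and Mthfd2 are shown because these genes had the 4 largest differences among the members called. Each is the 250 bases upstream of the RefSeq start site in GRCm38.p6, printed 5′ to 3′ on the strand of the gene. Capitals mark CCAAT, or ATTGG where it lies on the other strand, in Rrm2, Rrm1 and Mthfd2, and CACGTG, the E-box letters that MYC and related factors can bind, in Tyms.
Rrm2, chr12:24708004-24708253 (plus strand): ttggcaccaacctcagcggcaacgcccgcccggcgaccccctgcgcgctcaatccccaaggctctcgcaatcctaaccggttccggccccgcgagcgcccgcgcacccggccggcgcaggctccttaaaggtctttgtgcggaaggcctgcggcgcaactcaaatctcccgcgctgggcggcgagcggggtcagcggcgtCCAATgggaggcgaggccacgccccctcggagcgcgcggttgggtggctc
Rrm1, chr7:102441445-102441694 (plus strand): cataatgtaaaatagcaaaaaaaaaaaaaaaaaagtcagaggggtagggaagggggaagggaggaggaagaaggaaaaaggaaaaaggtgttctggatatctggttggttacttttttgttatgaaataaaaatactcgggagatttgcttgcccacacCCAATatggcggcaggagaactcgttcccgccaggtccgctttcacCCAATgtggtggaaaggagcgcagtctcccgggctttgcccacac
Tyms, chr5:30073626-30073875 (minus strand): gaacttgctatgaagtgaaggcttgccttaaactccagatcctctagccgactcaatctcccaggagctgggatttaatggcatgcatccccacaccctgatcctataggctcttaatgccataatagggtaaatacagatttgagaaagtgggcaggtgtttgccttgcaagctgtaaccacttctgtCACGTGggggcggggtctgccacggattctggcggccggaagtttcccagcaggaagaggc
Mthfd2, chr6:83317605-83317854 (minus strand): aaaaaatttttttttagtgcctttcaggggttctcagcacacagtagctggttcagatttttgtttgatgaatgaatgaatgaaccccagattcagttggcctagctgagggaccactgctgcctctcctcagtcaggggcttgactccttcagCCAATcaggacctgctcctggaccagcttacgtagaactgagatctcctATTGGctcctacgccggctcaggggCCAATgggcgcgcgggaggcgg
The CCAAT letters of Rrm2 began 50 bases before the start site, and those of Rrm1 began 91 and 45 bases before it. In Mthfd2 the matches began 96, 47 and 22 bases before the start, and the CACGTG letters of Tyms began 61 bases before it. RefSeq windows of 300 bases, 250 before to 50 after a start site, were found for 36 of the 39 members, 44 windows in all. CCAAT, searched on both strands, was in 43.2% of the member windows and in 37.4% of all 32851 windows. CACGTG, which reads alike on both strands, was in 15.9% of the member windows, those of Atic, Dtymk, Impdh2, Nme1, Paics and Tyms, and in 7.15% of all windows. The E2F-type letters TTTCCCGC, TTTCGCGC, TTTGCCGC and TTTGGCGC, searched on both strands, were in the windows of Ppat and Prps2 alone among members, 4.55% of member windows against 2.26% of all. TGATGNAA, letters that ATF4 can bind, was in 1 member window, that of Prps1, or 2.27% against 3.97% of all. Matches to different motifs overlapped 0 times in the member windows. A match is a description of letters, not a binding site.

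Of the 37 measured enzymes, 31 had a mean that reached the floor, and of these 17 were called higher in LysM(+) and 1 lower. Among all 9756 genes past the floor, 10.6% were called higher and 4.38% lower. The counts given below for role groups and other lists use this floor and can be set beside these shares. Members and lists were chosen with earlier results of these data known. Ctps reached the floor on the mean through LysM(+) alone. With both arrays required to reach it, 16 of 30 members were called higher and 1 lower, beside 10.0% and 3.85% of 9329 genes. Without any floor 18 of the 37 were at least 1.5-fold higher and 1 was as much lower, beside 6.98% and 5.51% of all 19505 genes. At 2-fold, 6 members were higher and 0 lower, beside 3.12% and 0.677% of the genes past the floor. By any amount, 31 of the 37 were higher and 6 lower, beside 9612 higher and 9892 lower of all 19505 genes. The median difference over all 37 was 0.57, or 1.49-fold, beside -0.0062 over all genes measured. Past the floor the median was 0.64 over members and 0.069 over all genes. Of the members, 15 had a mean from 8 to under 10, of which 11 were called higher, and 13.2% of the 2726 genes in that range were. For 8 members (Dut, Tk1, Shmt1, Phgdh, Cad, Ctps, Ppat and Impdh1) both values lay within the range of the background controls. Several members lay close to the threshold, with Umps (1.49-fold), Ppat (1.48-fold) and Hprt (1.47-fold) just short of it and Nme1 and Dtymk (1.55-fold each) just past it. After quantile normalization or loess 14 members were called higher, with Dtymk, Gart, Atic and Nme1 short of 1.5-fold and Ppat past it.

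**Figure D1:**
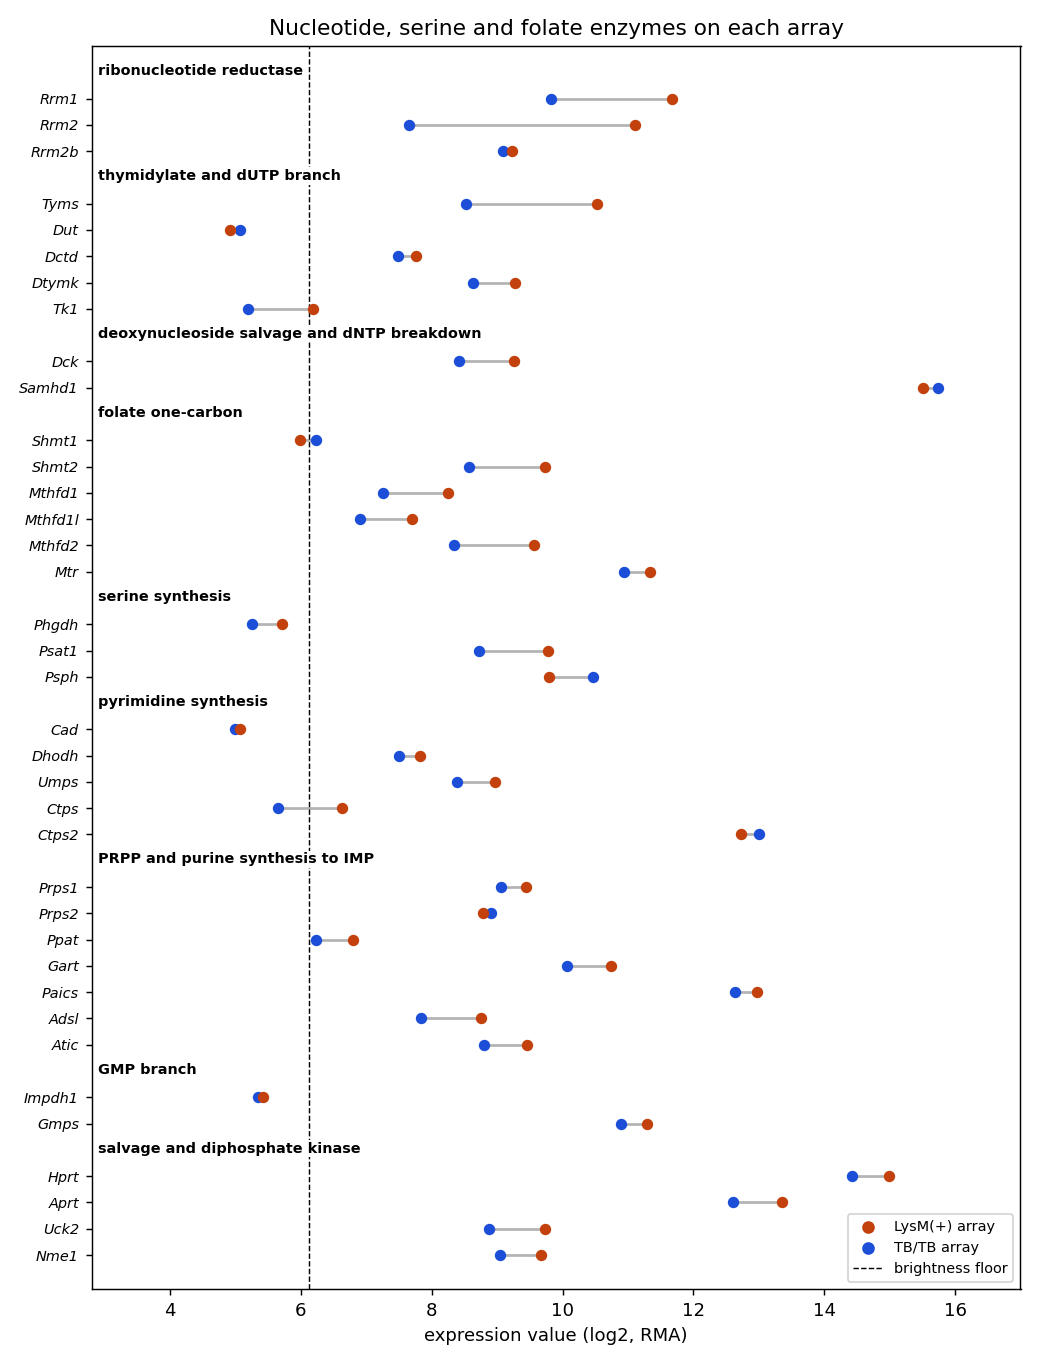
Log2 expression value (x axis) of each of the 37 measured enzymes on the LysM(+) array and the TB/TB array, 1 point per array, grouped by role; the dashed line is the floor at 6.12. The LysM(+) point lies to the right of the TB/TB point for 31 genes, with the widest gap for Rrm2.

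Ribonucleotide reductase, the enzyme that commits nucleotides to DNA, showed the largest gap. Rrm2, its small subunit made in dividing cells, had a value of 11.11 in LysM(+) and 7.65 in TB/TB, a difference of 3.47 or 11.0-fold. It ranked 9 among the 9756 genes past the floor. Rrm1, the large catalytic subunit, had values of 11.68 and 9.82, a difference of 1.86 or 3.63-fold. Rrm2b, the alternative small subunit that serves repair and mitochondrial DNA in cells outside S phase and is a p53 target, had 9.22 and 9.08, a difference of 0.14. The small subunits were therefore unequal in their differences by 3.32 on the log2 scale within the same pair of arrays. Beside Rrm2b, a list of 14 measured p53 targets had a median difference of 0.02. Of its 11 genes past the floor, Gtse1, which also peaks in dividing cells, was called higher with a difference of 1.66, its TB/TB value lying in the background range. Polk, a DNA repair polymerase, was called lower with a difference of -0.60.

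The branch that makes dTTP followed in part. Tyms, thymidylate synthase, which methylates dUMP to dTMP, had values of 10.53 in LysM(+) and 8.52 in TB/TB, a difference of 2.02 or 4.04-fold. Dtymk, which phosphorylates dTMP, had 9.27 and 8.64, a difference of 0.64. Dctd, which deaminates dCMP to dUMP, had 7.76 and 7.48, a difference of 0.28 that did not reach 1.5-fold. Tk1, the thymidine kinase of dividing cells, had 6.19 and 5.19, a difference of 0.99, but its mean lay under the floor and both values lay in the background control range, so it was not counted and its fold is not exact. Dut, which removes dUTP, had 4.92 and 5.07, under the floor on both arrays. The enzymes of this branch that lay above the background range all had the higher value in LysM(+).

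Among the enzymes that salvage or destroy deoxynucleosides and their phosphates, Dck and Samhd1 went different ways. Dck, deoxycytidine kinase, had 9.25 in LysM(+) and 8.42 in TB/TB, a difference of 0.84 or 1.79-fold. Samhd1 had 15.51 and 15.73, a difference of -0.22 that did not reach 1.5-fold. SAMHD1 is known to be raised by interferon in many cells. In a list of 14 measured interferon response genes the median difference was -0.69. Of the 13 past the floor, 8 were called lower in LysM(+) and 0 higher, beside 4.38% and 10.6% of all genes past the floor. Of the 8, Ifit2, named after its values were seen, had both values in the background control range. Usp18 (difference -1.34), Rsad2 (-1.30) and Ifit3 (-1.19) differed most. The part of the interferon response in the Samhd1 values was not tested.

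Of the 6 folate enzymes, Shmt2, Mthfd2, Mthfd1l and Mthfd1 were called higher in LysM(+), and Mtr and Shmt1 were not called. Shmt2, the mitochondrial serine hydroxymethyltransferase that moves a carbon from serine to folate, had 9.74 in LysM(+) and 8.57 in TB/TB, a difference of 1.17 or 2.25-fold. Mthfd2, the mitochondrial dehydrogenase and cyclohydrolase that is next in the path, had 9.56 and 8.34, a difference of 1.21 or 2.32-fold. Mthfd1l, which releases the carbon as formate for export to the cytosol, had 7.70 and 6.90, a difference of 0.81. These enzymes form a chain from serine to formate, and each was called higher.

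In the cytosol, Mthfd1, which takes up formate into folate, had 8.24 and 7.25, a difference of 0.99 or 1.98-fold. Shmt1, the cytosolic counterpart of Shmt2, had 5.99 and 6.23, a difference of -0.24 with both values in the background control range. Mtr, methionine synthase, which returns folate from its methyl form, had 11.34 and 10.93, a difference of 0.41 that did not reach 1.5-fold. Mthfd2l, a relative of Mthfd2 that is not a member, had 6.55 and 6.06, both in the background range.

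The serine synthesis enzymes did not move together. Psat1, the transaminase of the path, had 9.77 in LysM(+) and 8.72 in TB/TB, a difference of 1.05 or 2.07-fold. Psph, the phosphatase that completes serine, had 9.79 and 10.46, a difference of -0.67 or 1.59-fold lower in LysM(+), and was the sole member called lower. Phgdh, the dehydrogenase that opens the path, had 5.71 and 5.25, both under the floor. Psat1, Phgdh, Psph, Shmt2 and Mthfd2 are known targets of ATF4, the transcription factor of the amino acid response. Of these, Psat1, Shmt2 and Mthfd2 were called higher, Psph was called lower and Phgdh was not called. In a list of 18 other measured ATF4 response genes the median difference was -0.02. Of the 14 past the floor, 3 were called higher and 0 called lower, beside 10.6% and 4.38% of all 9756 genes past the floor. The 3 were the asparagine synthetase gene Asns (difference 1.58), the proline synthesis gene Aldh18a1 (1.02) and the amino acid transporter gene Slc7a5 (0.90). The TB/TB value of Aldh18a1 lay in the background control range. Atf4 itself, named after its value was seen, had 13.46 and 13.10, a difference of 0.36.

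**Figure D2:**
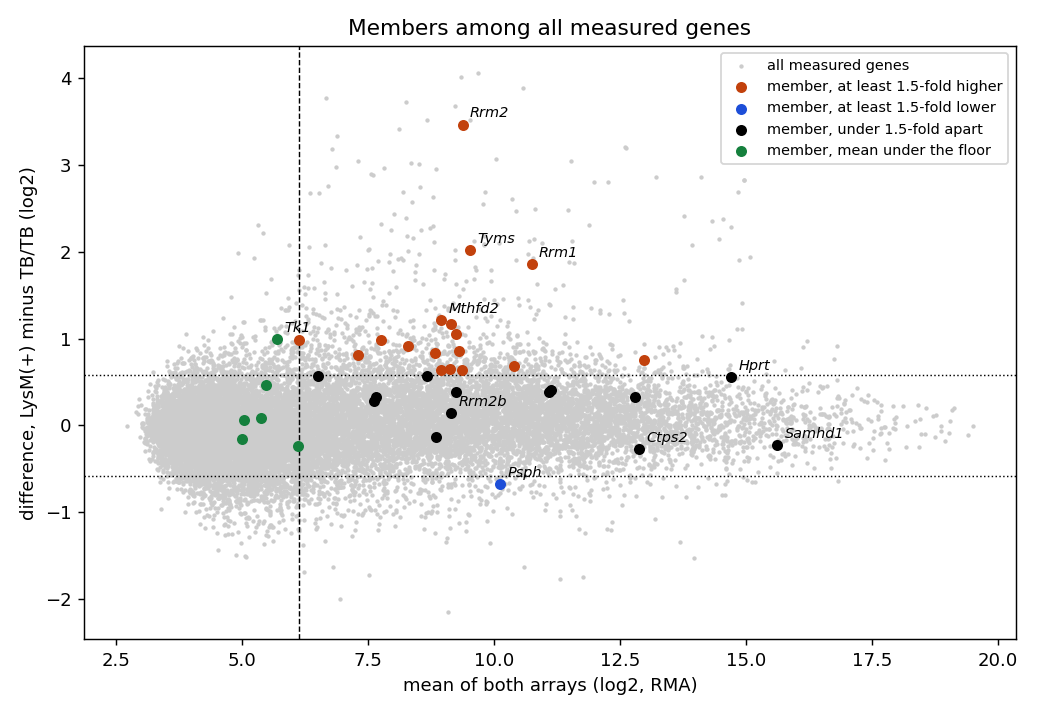
Difference between the arrays (LysM(+) minus TB/TB, log2, y axis) against the mean of both arrays (log2, x axis) for all 19505 genes in grey and the 37 measured enzymes in colour; dotted lines mark 1.5-fold and the dashed line the floor at 6.12. Rrm2, Tyms and Rrm1 lie above the other enzymes, and Psph is the member below the lower line.

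Of 5 enzymes of pyrimidine synthesis 4 reached the floor, and of these 1 was called higher in LysM(+) and 0 lower. Cad, which carries the first steps of the path, had 5.06 in LysM(+) and 5.00 in TB/TB, both in the background control range. Dhodh, the mitochondrial dehydrogenase that is the target of leflunomide, had 7.83 and 7.50, a difference of 0.33. Umps, which completes UMP, had 8.96 and 8.39, a difference of 0.57 or 1.49-fold, just short of the threshold. CTP synthase is made by a pair of genes. Ctps had 6.62 and 5.64, a difference of 0.98, and was called higher, but both values lay in the background control range and the TB/TB value under the floor, so its fold is not exact. Ctps2 had 12.73 and 13.01, a difference of -0.27.

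Of 7 measured enzymes that lead to IMP, the first purine nucleotide, 3 were called higher in LysM(+) and 0 lower. PRPP synthetase, which makes the activated ribose for purines and pyrimidines, had differences of 0.38 for Prps1 (9.44 and 9.06) and -0.14 for Prps2 (8.78 and 8.91), neither past 1.5-fold. Ppat, the regulated amidotransferase that opens the path, had 6.80 and 6.23, a difference of 0.57 or 1.48-fold, with both values in the background control range. Gart, which uses formyl folate, had 10.75 and 10.06, a difference of 0.68 and was called higher. Paics, an enzyme of the middle of the path with carboxylase and ligase activity, had 12.97 and 12.64, a difference of 0.33 that did not reach 1.5-fold. Paics and Ppat lie head to head on opposite strands, and by the RefSeq start sites 277 bases belong to both transcripts.

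Later in the path, Adsl, adenylosuccinate lyase, had 8.75 in LysM(+) and 7.83 in TB/TB, a difference of 0.92 or 1.89-fold. Atic, which also uses formyl folate and closes the ring to give IMP, had 9.45 and 8.80, a difference of 0.65 or 1.57-fold. The median difference over these 7 genes was 0.57. On the branch from IMP to GMP, Gmps, which aminates XMP, had 11.29 and 10.90, a difference of 0.39, and Impdh1, which oxidises IMP to XMP, had 5.42 and 5.34, under the floor on both arrays.

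The salvage enzymes Aprt, Uck2 and Hprt and the diphosphate kinase Nme1 differed by like amounts, between 0.56 and 0.86. Aprt, which recovers adenine, had 13.35 in LysM(+) and 12.60 in TB/TB, a difference of 0.75 or 1.68-fold. Uck2, a uridine and cytidine kinase, had 9.73 and 8.87, a difference of 0.86 or 1.81-fold. Nme1, which makes nucleoside triphosphates from diphosphates, had 9.67 and 9.04, a difference of 0.63. Hprt, which recovers hypoxanthine and guanine and is often used as a reference gene, had 14.99 and 14.43, a difference of 0.56 or 1.47-fold, just short of the threshold. Nme2, a close relative of Nme1 and not a member, had 11.87 and 11.66, a difference of 0.21. Nme1 and Nme2 are similar in sequence, and signal shared between their probes was not tested.

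Other genes of the pathway had a median difference near 0. Of 68 other genes of folate, methionine, glycine and nucleotide metabolism, 59 were measured and 47 had a mean that reached the floor. Of the 47, 1 was called higher in LysM(+) and 3 were called lower, beside 10.6% and 4.38% of all 9756 genes past the floor. The median difference over the 59 was 0.06. Aldh1l1, a cytosolic folate dehydrogenase, was called higher with a difference of 0.84 (6.63 and 5.79), with both values in the background control range. Uckl1, a relative of Uck2, had 6.90 and 7.90, the largest difference of the 4 genes called, with the lower value in LysM(+). Cmpk2, a mitochondrial nucleotide kinase known as an interferon-induced gene, had 10.15 and 10.89, a difference of -0.73. Tk2, the mitochondrial thymidine kinase, had 9.17 and 9.85, a difference of -0.68. The difference between these genes and the members was not tested. As the members and lists were chosen with earlier results of these data known, the lists are not an independent comparison.

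**Figure D3:**
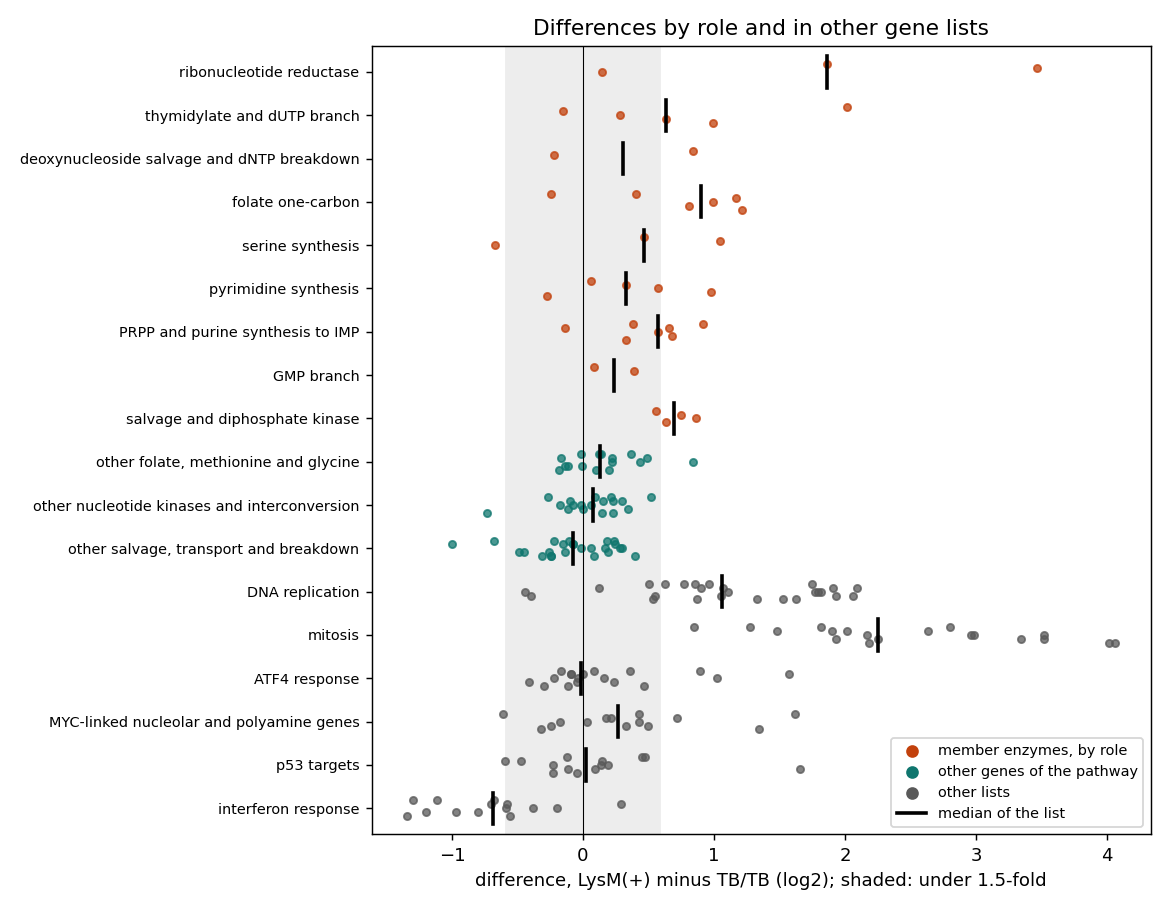
Difference between the arrays (LysM(+) minus TB/TB, log2, x axis) for each measured gene of the 9 role groups, of 3 lists of other pathway genes and of 6 other lists; black bars are list medians and the shaded band is under 1.5-fold. Ribonucleotide reductase has the highest median of the role groups, 1.86, between those of DNA replication (1.06) and mitosis (2.25).

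Most genes of the DNA replication and mitosis lists also had the higher value in LysM(+). Of 23 replication genes past the floor 19 were called higher and 0 lower, with a median difference of 1.06 over the 26 measured, led by the primase gene Prim1 (2.09), the GINS subunit gene Gins1 (2.06) and the helicase gene Mcm5 (1.93). Gins1, Cdc45 and Cdc6 reached the floor on the mean through LysM(+) alone, which makes their differences inexact, and with both arrays required to reach it 16 of 20 were called higher and 0 lower. Of the 19 called, 5 had a TB/TB value in the background control range, Gins2 and Lig1 besides these. All 17 mitosis genes past the floor were called higher, with a median of 2.25 over the 19 measured, led by Ube2c (4.06) and Plk1 (4.01). Cdk1 and Bub1 passed through LysM(+) alone, leaving 15 of 15 with both arrays past the floor. A TB/TB value in the background control range was held by 7 of the 17. Over all genes, 10.6% were called higher and 4.38% lower past the floor, and 10.0% and 3.85% with both arrays required. Rrm1, Rrm2, Tyms and Tk1 were then set aside, a choice made after seeing the data. The other 33 measured enzymes, Dtymk and Dck of deoxynucleotide supply among them, had a median difference of 0.56. Of the 28 past the floor, 14 were called higher and 1 lower, beside 10.6% and 4.38% of all genes past the floor. The MYC gene and its known targets were also read, since MYC is known to drive nucleotide synthesis genes. Myc had 12.18 in LysM(+) and 10.57 in TB/TB, a difference of 1.62. Over the 14 measured genes of that list, Myc among them, the median difference was 0.27, with Myc, Srm (1.34) and Pa2g4 (0.72) called higher and Bop1 (-0.61), in the background range in LysM(+), lower. The part of dividing cells or of MYC in the enzyme values was not tested, and in bulk RNA a larger share of dividing cells cannot be told apart from more RNA per cell.

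Markers of other cells were read beside the enzymes. Of 9 measured neutrophil markers 8 reached the floor. Of these 4 were called higher (Ltf, Retnlg, Elane and Mmp8, between 0.98 and 1.38) and 0 lower. Among all genes past the floor, 10.6% were called higher and 4.38% lower. The mean level of the 9 markers was 10.3 in LysM(+) and 9.68 in TB/TB. Ngp (16.32 and 15.92), S100a8 (13.21 and 12.92) and S100a9 (13.35 and 12.85) lay within the range of the macrophage markers on both arrays. They were not called, nor was Mpo (9.99 and 10.29, a difference of -0.30). Retnlg and Elane on the TB/TB array lay in the background control range, as did Procr of the next list. Of 8 haematopoietic progenitor markers 2 reached the floor, with Procr (7.61 and 6.61) called higher and Meis1 (7.47 and 7.05) not called. The mean level of the 8 was 5.55 and 5.47, and Kit, Flt3 and Cd34, which define such cells, lay under the floor on both arrays. The erythroid and lymphocyte markers measured, 4 and 5, were all under the floor on both arrays. Of 7 measured fibroblast and stromal markers 5 reached the floor and 2, Col1a2 and Postn, were called lower, and of 6 osteoclast markers 3 reached it and 1, Dcstamp, was called lower. Their part in the enzyme values was not tested.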

How the data were processed

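The authors made the values of each probe set with RMA, a method that subtracts background, equalizes the arrays and combines the probes of a set, and the submitters' processing notes name Affymetrix Expression Console as the tool. Its version and the log base are not given in the sources, and the deposited values were read as log2. Of 28846 probe sets, 19572 had a gene in the platform annotation, matched by Entrez ID to RefSeq symbols of GRCm38.p6, which gave 19505 genes. Where a gene had several probe sets they were averaged, and every measured member had 1. No member shared both values with another gene.

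Differences and list medians were computed with pandas 2.3.3 in Python 3.11.15. The counts used 1.5-fold and the floor of 6.12 on the mean of both arrays. Simulated data checked only that the fold threshold was coded correctly. That check applied no floor and set its own noise, so it gives no support to any call. All members, and the other genes at least 1.5-fold apart past the floor, up to 6 a list, could be named, with Mc4r, Lyz2 and paralogs. Outside that rule, Ifit2, Atf4, Gins2, Lig1, Kit, Flt3, Cd34, Meis1, Ngp, S100a8, S100a9 and Mpo were named after their values were seen. Members and lists were chosen with earlier results of these data known. A planned comparison of paralog proteins was not run. The alternatives were centring, quantile normalization, loess (span 0.4), the brightest probe set, other floors and other folds.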

Additional observations from a re-analysis of the deposited data

How the results depend on the processing

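No paired analysis was possible because each group had 1 array, so no array could be left out and no spread between replicates is known. The largest difference of a background control between the arrays, 0.09, was used as the size below which a median was taken as not moved. At 2-fold in place of 1.5-fold, 6 members were called higher and 0 lower. The median of ribonucleotide reductase was 1.76 with loess in place of 1.86. The number of members called higher was 14 after quantile normalization and 14 after loess, with Dtymk, Gart, Atic and Nme1 no longer past 1.5-fold and Ppat past it in both, beside 9.15% and 8.69% of the genes past the floor.  The median over all 37 members stayed between 0.55 and 0.64 under centring, quantile normalization, loess, the mean in place of the median and members past the floor only. No sign of the 37 differences changed (0 of 37) under centring, quantile normalization, loess or the brightest probe set. Signal within the background control range limits what can be read for 8 of the 37 members.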
